A study of Mus musculus with 4 samples.

Results

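The genes described here are 38 genes of the hypoxia response and of glycolysis, listed by symbol, of which 36 were in the deposited table of 12584 genes. Gapdh and Eno1 were not analysed here. The 36 measured members were the glucose transporter Slc2a1, the hexokinases Hk1, Hk2 and Hk3, the glycolytic enzymes from Gpi1 to Pkm, the regulators and side branches of the pathway, Hif1a with the hydroxylases, and a set of genes known as targets of hypoxia-inducible factors (HIFs), Vegfa among them. They were counted in 34447 cells of 4 single-cell libraries, and the main description sets the macrophage class TAM_Spp1 against the other monocytes and macrophages.

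All 4 libraries came from subcutaneous YUMM1.7OVA RTT tumours, a Braf-driven mouse melanoma line that carries ovalbumin and had been made resistant to targeted therapy (RTT). The tumours grew in Rag2-/- mice, whose own lymphocytes do not mature into T or B cells. Every mouse received ovalbumin-specific CD8+ OT-1 T cells (adoptive cell transfer, ACT) on day 7, and tumours were taken on day 10, 72 h after ACT. CTRL tumours carried an empty vector with mCherry and a puromycin resistance gene. IRF3/7 tumours overexpressed the interferon regulatory factors IRF3 and IRF7 in the melanoma cells, from viral vectors with an SFFV promoter. COX2i tumours were mCherry tumours under celecoxib, an inhibitor of cyclooxygenase 2. COX2i + 5-AZA tumours had celecoxib and 5-azacitidine, an inhibitor of DNA methyltransferases. For each group 3 tumours were pooled before live CD45+ cells were sorted, so each group is 1 library. A difference between groups therefore has no replicate check and no p-value, and the intervals below cover counting error only.

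Cells sense oxygen through prolyl hydroxylases, which mark HIF-1α and HIF-2α for destruction while oxygen is present. When oxygen falls, the HIFs accumulate, enter the nucleus and bind a short DNA element, the hypoxia response element. Their targets take up glucose, run glycolysis to lactate, keep pyruvate out of the mitochondria, remove mitochondria and secrete VEGF-A, which draws in blood vessels. In tumours, macrophages of poorly perfused regions are known for this programme, and lipopolysaccharide, lactate or interferon can switch on parts of it in myeloid cells without a lack of oxygen.

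The core letters of the hypoxia response element, ACGTG, were searched on both strands of the RefSeq promoter windows (build GRCm38.p6), each running from 250 bases before to 50 bases after a transcription start. Of 34 members with a window, 24 held the letters in at least 1 window (70.6%), against 29.0% of the 9982 genes of the deposited table that have a window. Counted per window, the letters were in 57.4% of the members' windows and in 19.6% of all windows of that length. They were in 4 of 4 members of the glucose uptake group, in 5 of 6 of the HIF and hydroxylase group and in neither glycogen gene. Upstream stretches are shown for Vegfa, Ddit4, Egln3, Slc2a1 and Bnip3, all higher in TAM_Spp1 in each of its libraries, because they hold the letters at different places or, in Vegfa, not at all. Each is the 250 bases before the RefSeq start, on the gene's own strand, with any match in capitals.
Slc2a1, chr4:119108495-119108744, plus strand: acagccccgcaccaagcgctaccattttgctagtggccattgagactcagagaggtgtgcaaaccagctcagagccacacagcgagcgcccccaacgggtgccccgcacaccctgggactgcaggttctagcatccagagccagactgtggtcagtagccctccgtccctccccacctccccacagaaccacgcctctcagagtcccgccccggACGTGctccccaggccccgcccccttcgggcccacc
Egln3, chr12:54203875-54204124, minus strand: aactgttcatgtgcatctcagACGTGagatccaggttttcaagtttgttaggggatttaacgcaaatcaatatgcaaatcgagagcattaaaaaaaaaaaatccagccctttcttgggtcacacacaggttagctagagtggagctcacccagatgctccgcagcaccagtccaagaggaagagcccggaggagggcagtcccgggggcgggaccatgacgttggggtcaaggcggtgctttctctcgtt
Bnip3, chr7:138909507-138909756, minus strand: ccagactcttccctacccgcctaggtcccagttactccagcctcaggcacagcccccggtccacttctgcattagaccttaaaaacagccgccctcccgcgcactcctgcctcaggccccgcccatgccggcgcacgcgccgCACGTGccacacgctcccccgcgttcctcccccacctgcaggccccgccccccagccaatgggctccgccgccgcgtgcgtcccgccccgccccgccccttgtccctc
Ddit4, chr10:59951771-59952020, minus strand: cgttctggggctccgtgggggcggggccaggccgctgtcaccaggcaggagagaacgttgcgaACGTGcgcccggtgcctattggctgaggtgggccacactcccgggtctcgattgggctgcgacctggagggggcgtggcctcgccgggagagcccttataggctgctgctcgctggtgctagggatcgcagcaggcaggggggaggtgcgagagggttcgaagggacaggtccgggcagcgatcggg
Vegfa, chr17:46032378-46032627, minus strand: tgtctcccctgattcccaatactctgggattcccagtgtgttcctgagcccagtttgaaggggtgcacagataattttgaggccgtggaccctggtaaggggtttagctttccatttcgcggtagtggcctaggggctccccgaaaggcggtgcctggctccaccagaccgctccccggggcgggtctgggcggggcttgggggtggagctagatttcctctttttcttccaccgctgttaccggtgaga

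In Slc2a1 the match began 36 bases before the start, in Ddit4 187 bases and in Egln3 229 bases before it. The Bnip3 match is the palindrome CACGTG, which was counted once on each strand. The window of the main Vegfa start held no match, and a window at an internal Vegfa start held 1 on the minus strand, 211 bases before that start. In the GENCODE annotation the gene spans of Slc2a1, Bnip3 and Ddit4 begin further upstream, so that the last bases of these 3 runs lie inside the gene. A match is a description of the letters in a window and was not tested against the expression values.

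Levels are UMIs of a gene per 1000000 UMIs of a class in a library (CPM). A UMI is a tag that marks 1 captured molecule. Libraries held 6329 to 10032 cells and 26356819 to 78722763 UMIs, the fewest in IRF3/7, where the median cell had 3168 UMIs against 6039.5 to 7502 elsewhere. Cell classes are the 17 of the authors' annotation, 9 of them monocytes or macrophages, and 1 non-immune class named Myofibrobl was present although CD45+ cells were sorted. TAM_Spp1 had 2347 cells in CTRL, 1412 in COX2i and 857 in COX2i + 5-AZA, but 10 in IRF3/7, so it was described in 3 libraries only. The class name was checked against its markers. A list of 9 TAM_Spp1 markers without members (Spp1, Thbs1, Fn1 and others) summed to 52983, 42322 and 30157 CPM in TAM_Spp1 and to 18000, 22116 and 11580 CPM in the other monocytes and macrophages. Irf7, overexpressed by design in the tumour cells, was at 62.1, 4964, 86.2 and 436 CPM over all cells of CTRL, IRF3/7, COX2i and COX2i + 5-AZA, highest in the library so labelled. It was also above CTRL in COX2i + 5-AZA, which was not made to overexpress it. In sorted CD45+ cells, Irf7 of the vector and of the cells' own gene cannot be told apart here. No cell barcode with its probe barcode occurred in more than 1 library. Droplet barcodes did, in 10018 cells, and the members summed to 8980 and 9010 CPM in TAM_Spp1 cells of CTRL with shared and unshared droplet barcodes.

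TAM_Spp1 carried more of the members' RNA than the other monocytes and macrophages pooled in each of its 3 libraries. Taken alone, Monocyte_1 summed higher than TAM_Spp1 in CTRL, at 10584 CPM from 44 cells, and in COX2i, at 10432 CPM. Together the 36 members made up 9002 CPM in TAM_Spp1 and 5093 CPM in the others of CTRL. In COX2i these sums were 10286 and 6865 CPM, and in COX2i + 5-AZA 12559 and 7953 CPM. The class names were drawn by the authors from clusters of these same cells and genes, and Vegfa is 1 of the genes by which TAM_Spp1 was recognised, so the comparison is a description without a test. A gene counts as higher or lower when its CPM differed by 1.5-fold or more with at least 50 UMIs in both arms together. By this rule 19 members were higher in CTRL, 15 in COX2i and 19 in COX2i + 5-AZA, and 2, 2 and 1 were lower. Over all genes the higher share was 8.65%, 7.51% and 7.60% in the same order, and the lower share 23.4%, 22.1% and 19.3%. The members' median log2 ratio was 0.59, 0.49 and 0.62, beside −0.20, −0.19 and −0.15 for all genes. Scaling by median-of-ratios size factors raises every ratio by about the size of the all-gene median, and then Pdk1 and Gbe1 change sign in CTRL and Pdk1 in COX2i.

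**Figure D1:**
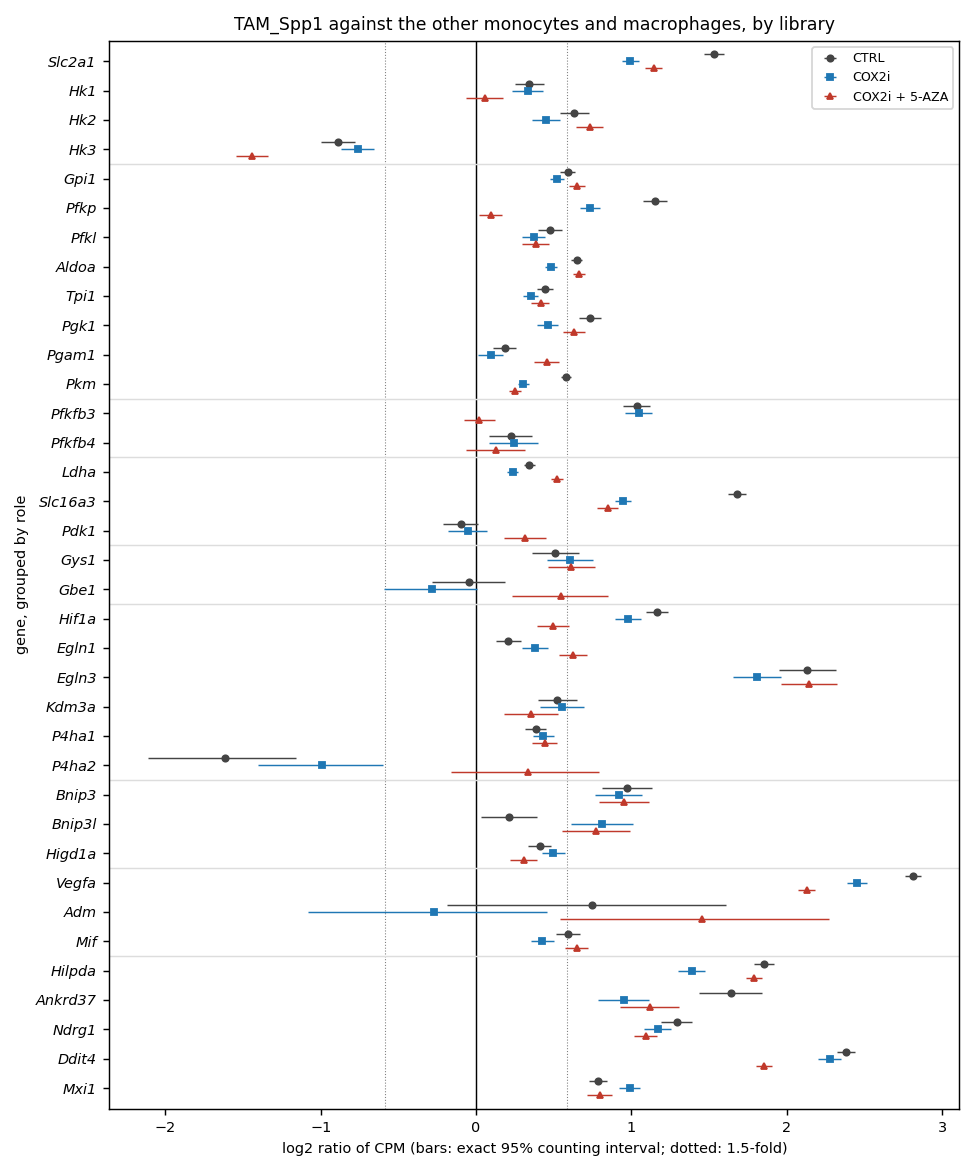
Log2 ratio of CPM in TAM_Spp1 against the other monocytes and macrophages for each of the 36 members (rows, ordered by role), in CTRL, COX2i and COX2i + 5-AZA. Bars are exact 95% intervals of counting error. Vegfa lies furthest to the right in CTRL, at 2.81, and Hk3 lies to the left of 0 in all 3 libraries.

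Among the members, 10 were higher in TAM_Spp1 in all 3 libraries, which 3.78% of all genes were, and 1 was lower in all 3, beside 10.6% of all genes. The 10 were Vegfa, Ddit4, Egln3, Hilpda, Slc16a3, Ankrd37, Slc2a1, Ndrg1, Mxi1 and Bnip3, and the lower one was Hk3. With TAM_C1q alone as comparator 17 of 20, 12 of 17 and 14 of 19 calls with enough UMIs there remained, and Mxi1 in all 3 libraries and Bnip3 and Ankrd37 in COX2i were among those lost. With the class drawn by its share of marker UMIs, the calls in either direction numbered 17 of 21, 13 of 17 and 14 of 20, and Adm turned to −1.10 in CTRL and P4ha2 to 0.02 in COX2i. Among the 10, the core glycolytic enzymes are missing and the transporters at both ends of the pathway are present. Among the 6, 6 and 8 monocyte and macrophage classes with at least 50 cells, TAM_Spp1 ranked first for 24 of 36 members in CTRL, for 16 in COX2i and for 27 in COX2i + 5-AZA. For all genes it ranked first in 11.7%, 8.95% and 8.61%. Monocyte_1, with 44 cells in CTRL, was not ranked there, and its members summed to 10584 CPM.

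Of the secreted factors, Vegfa, the growth factor of endothelial cells (ENSMUSG00000023951.17, chr17:46016993-46032369, minus strand), had the largest difference. Its level was 826 CPM in TAM_Spp1 and 118 CPM in the other monocytes and macrophages of CTRL, a log2 ratio of 2.81 (95% interval 2.76 to 2.86). In COX2i the levels were 507 and 92.6 CPM, a log2 ratio of 2.45 (2.39 to 2.51). In COX2i + 5-AZA they were 676.5 and 155 CPM, a log2 ratio of 2.13 (2.07 to 2.18). TAM_Spp1 was the highest of all classes for Vegfa in these 3 libraries, ahead of Myofibrobl at 318, 341 and 308 CPM. In IRF3/7, which lacks the class, Monocyte_1 at 229 CPM and Myofibrobl at 226 CPM led, with intervals that overlapped. Mif, a cytokine that inhibits macrophage migration, was higher in CTRL at a log2 ratio of 0.59 and in COX2i + 5-AZA at 0.65, and reached 0.43 in COX2i. Adm, the vasodilator adrenomedullin, had only 57 to 184 UMIs in both arms together, and its log2 ratios were 0.74 (−0.19 to 1.61), −0.27 (−1.08 to 0.45) and 1.45 (0.54 to 2.27).

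The group of other HIF targets was higher as a whole, with 5 of 5 members past 1.5-fold in each library. Ddit4, a stress-induced inhibitor of mTORC1, had 513 CPM in TAM_Spp1 and 98.4 CPM in the others of CTRL. In COX2i it had 346 against 71.4 CPM, and in COX2i + 5-AZA 786 against 218 CPM. The log2 ratios for Ddit4 were 2.38, 2.28 and 1.85, the largest of this group in each library. Hilpda, which inhibits the lipase ATGL and so keeps lipid droplets, had log2 ratios of 1.85, 1.39 and 1.79. Its levels in TAM_Spp1 were 348, 213 and 824 CPM, so that COX2i was the lowest and COX2i + 5-AZA the highest. Ndrg1, a stress-response protein, stood at 1.29, 1.17 and 1.09 and Ankrd37 at 1.64, 0.95 and 1.12. Mxi1, an antagonist of MYC, had 0.78, 0.99 and 0.79.

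The ratios of the oxygen sensors differed in size within the family, all above 0. Egln3, a hydroxylase that HIF itself induces, was at 48.0 CPM in TAM_Spp1 and 10.9 CPM in the others of CTRL, a log2 ratio of 2.13 (1.95 to 2.32). It was at 73.3 against 20.9 CPM in COX2i and at 68.3 against 15.5 CPM in COX2i + 5-AZA. Egln1, the main sensor of resting cells, had log2 ratios of 0.21, 0.38 and 0.62, the last past 1.5-fold. Hif1a, the oxygen-regulated subunit, had 254 and 113 CPM in CTRL, 204.5 and 104 CPM in COX2i, and 174 and 123 CPM in COX2i + 5-AZA. Its log2 ratio went from 1.17 through 0.98 to 0.50 in that order, the last under 1.5-fold. The histone demethylase Kdm3a reached 0.52, 0.55 and 0.36. The collagen hydroxylases parted in sign in CTRL and COX2i. P4ha1 had 0.38, 0.43 and 0.44, while P4ha2 had −1.62 in CTRL, −0.99 in COX2i and 0.33 in COX2i + 5-AZA, at levels of no more than 16.3 CPM.

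The genes of glucose entry and of the first step of glycolysis also differed among themselves. Slc2a1, the glucose transporter GLUT1, was at 315 CPM in TAM_Spp1 and 109 CPM in the others of CTRL, at 489 and 246 CPM in COX2i, and at 636 and 288 CPM in COX2i + 5-AZA. Its log2 ratios were 1.53, 0.99 and 1.14. Among the hexokinases, which trap glucose as its phosphate, Hk1 was close in both arms, with log2 ratios of 0.34, 0.33 and 0.05. Hk2, the inducible form, had 0.63, 0.45 and 0.73. Hk3, the form of myeloid cells, was lower in every library, at 72.6 against 134 CPM in CTRL, 115 against 195 CPM in COX2i and 160.5 against 436 CPM in COX2i + 5-AZA. Within the same cells the hexokinases thus had ratios on both sides of 0.

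The 8 glycolytic enzymes had median log2 ratios of 0.58, 0.42 and 0.43, and 4, 1 and 3 of them passed 1.5-fold. Pfkp, the platelet form of phosphofructokinase, stood out in CTRL at 203 against 91.2 CPM and in COX2i at 354 against 213 CPM. In COX2i + 5-AZA it did not, at 298 against 279 CPM. The liver form Pfkl had log2 ratios of 0.48, 0.37 and 0.38. Pgk1 had 0.74, 0.46 and 0.63, Aldoa 0.65, 0.48 and 0.66, and Gpi1 0.59, 0.52 and 0.65. Tpi1, Pgam1 and Pkm stayed under 1.5-fold in all 3 libraries, with the highest value 0.58 for Pkm in CTRL.

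Pfkfb3 makes the allosteric activator of phosphofructokinase. It was at 154 against 75.3 CPM in CTRL and 189 against 91.8 CPM in COX2i, but at 175 against 173 CPM in COX2i + 5-AZA. Its relative Pfkfb4 had log2 ratios of 0.22, 0.24 and 0.13. At the end of the pathway, Slc16a3, the lactate exporter MCT4, was at 370 against 116 CPM in CTRL, 498 against 258 CPM in COX2i and 416 against 232 CPM in COX2i + 5-AZA. Ldha, which makes lactate, reached only 0.34, 0.24 and 0.52 on the log2 scale, and Pdk1, which blocks pyruvate dehydrogenase, −0.10, −0.05 and 0.32. Of the glycogen enzymes, the synthase Gys1 had 0.51, 0.61 and 0.61 and the branching enzyme Gbe1 −0.05, −0.28 and 0.55. Of the mitochondrial genes, the mitophagy receptor Bnip3 was past 1.5-fold throughout, at 0.97, 0.92 and 0.95. Its relative Bnip3l had 0.21, 0.81 and 0.77, and Higd1a, a factor of the respiratory chain, 0.41, 0.50 and 0.31.

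TAM_Spp1 cells were shallower than the pooled others, with medians of 4047, 4423.5 and 5417 UMIs per cell against 7639, 8677 and 6481.5. Marker sums of other cells moved with the comparison in part. A neutrophil list summed to 390 CPM in TAM_Spp1 and 179 CPM in the others of CTRL, 263 and 136 CPM in COX2i, and 613 and 642 CPM in COX2i + 5-AZA. The non-immune list was no higher in TAM_Spp1, at 298 against 395, 359 against 430 and 110 against 132 CPM. T cell markers were at 0 CPM in TAM_Spp1 of CTRL and COX2i and at 0.199 CPM in COX2i + 5-AZA. A monocyte list was higher in TAM_Spp1 of CTRL and COX2i, at 2098 against 715 and 2579 against 1516 CPM, and lower in COX2i + 5-AZA, at 2937 against 5540 CPM. The part of neutrophil or monocyte RNA and of depth in the ratios was not tested.

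Other genes of the same pathways were counted in the same way. Of 30 pathway genes in the table that are not members, 6 of 28 with enough UMIs were higher and 8 lower in TAM_Spp1 of CTRL, 5 and 6 of 27 in COX2i, and 7 and 4 of 26 in COX2i + 5-AZA. Over all genes the higher shares were 8.65%, 7.51% and 7.60% and the lower ones 23.4%, 22.1% and 19.3%, so the lower counts lie near that background. Higher in all 3 were Ier3, an early stress gene, with log2 ratios of 2.44, 1.43 and 1.56, the circadian repressor Bhlhe40 with 1.74, 1.77 and 1.86, and the aldolase isoform Aldoc with 1.40, 1.45 and 1.21. The mitochondrial adenylate kinase Ak4 and the disulphide oxidase Ero1l were higher too, Ero1l at 0.98, 0.89 and 1.10. Lower in all 3 were the muscle phosphofructokinase Pfkm with −1.28, −0.73 and −1.01, the lactate transporter Slc16a7 with −0.98, −0.73 and −0.82, and the lysyl hydroxylase Plod1. Ldhb, the heart-type subunit of lactate dehydrogenase, had −1.20, −0.88 and −0.51. Epas1, which encodes HIF-2α, had −1.28, −1.39 and 0.01.

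**Figure D2:**
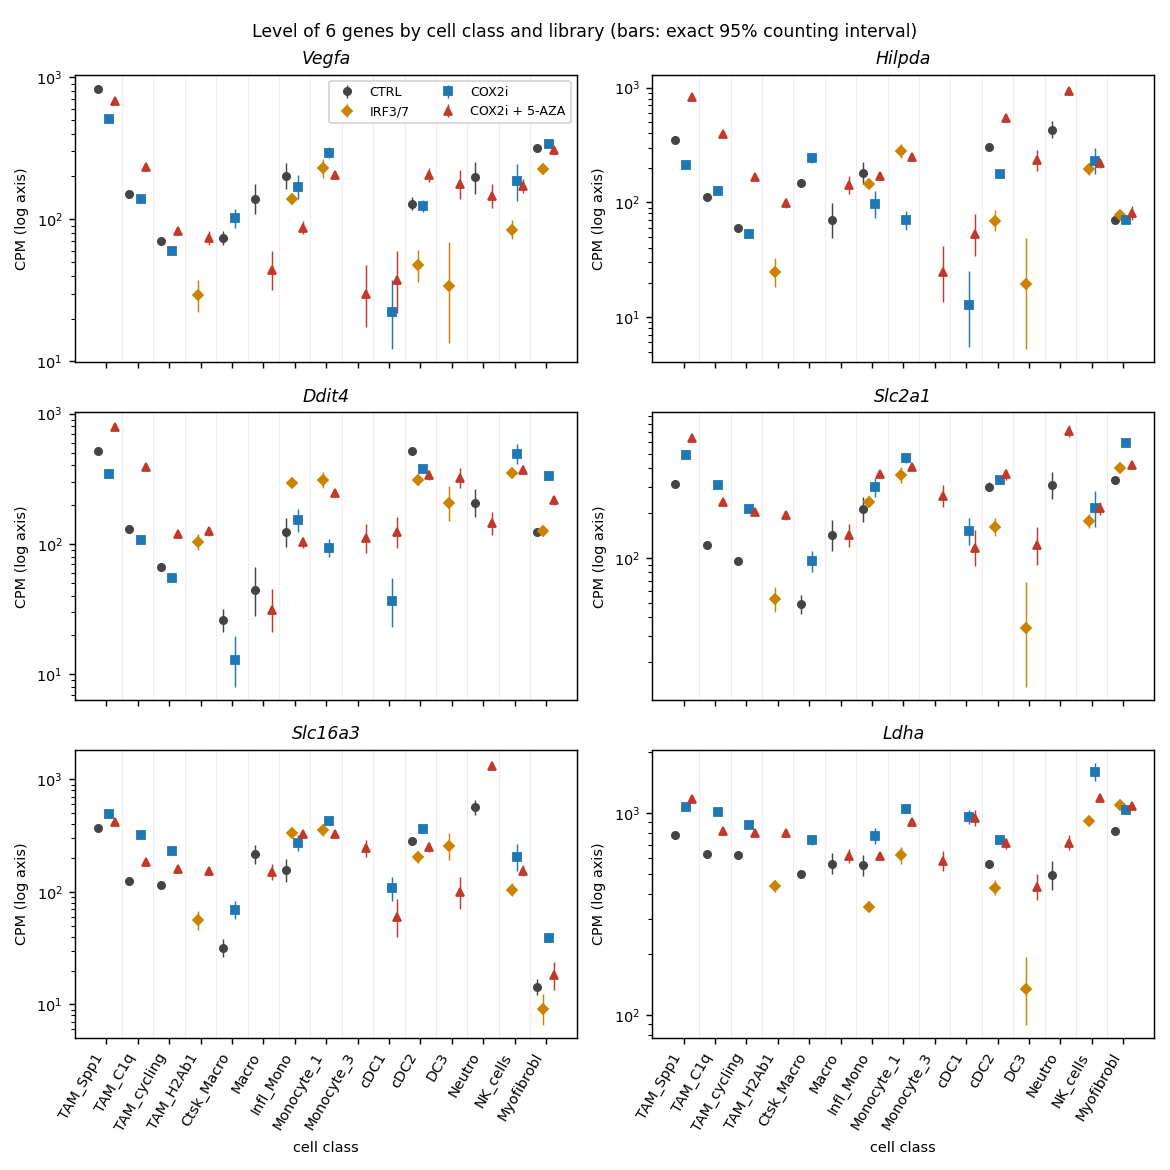
Level in CPM (log axis) of Vegfa, Hilpda, Ddit4, Slc2a1, Slc16a3 and Ldha in every class with at least 50 cells, by library, with exact 95% counting intervals as bars. For Vegfa the TAM_Spp1 points at 826, 507 and 676.5 CPM are the highest of their libraries, while Neutro leads for Slc16a3 at 1306 CPM.

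Outside the macrophages the members had other leaders. Neutro was high for genes of the lactate and lipid ends: in COX2i + 5-AZA it had 1306 CPM of Slc16a3, 928 CPM of Hilpda and 712 CPM of Slc2a1, and in CTRL 567 CPM of Slc16a3 and 431 CPM of Hilpda. In cDC1, Pfkp stood at 947 CPM in COX2i and 1515 CPM in COX2i + 5-AZA. DC3, a dendritic cell class, held 894 CPM of Ndrg1 in IRF3/7 and 711 CPM in COX2i + 5-AZA. Each of these genes is a known HIF target or glycolytic gene, here in cells outside the macrophage lineage. The Myofibrobl class led for P4ha2, at 58.7, 97.9, 127 and 112 CPM in CTRL, IRF3/7, COX2i and COX2i + 5-AZA. It also led for Egln3, at 97.9, 282 and 179 CPM, except in IRF3/7, where Monocyte_1 had 39.6 CPM and Myofibrobl 19.8 CPM. Ctsk_Macro, the macrophages with cathepsin K, had the other pattern: 48.8 CPM of Slc2a1 and 26.0 CPM of Ddit4 in CTRL, but 209 CPM of Hk1 and 138 CPM of Pdk1. Summed over all members, COX2i had 10432 CPM in Monocyte_1 beside 10286 CPM in TAM_Spp1, so a monocyte class came as high there.

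The libraries were then compared over all monocytes and macrophages. The members summed to 5832 CPM in CTRL, 5216 in IRF3/7, 7239 in COX2i and 8291 in COX2i + 5-AZA. Against CTRL, 7 members were higher and 15 lower in IRF3/7, where 13.0% of all genes were higher and 48.1% lower. In COX2i 8 were higher and 3 lower, beside 6.51% and 9.57% of all genes, and in COX2i + 5-AZA 12 were higher and 1 lower, beside 8.48% and 19.7%. Between COX2i + 5-AZA and COX2i, which share no CTRL cells, the counts were 5 higher and 2 lower, beside 9.21% and 18.6%. The members' medians were −0.44, 0.37, 0.44 and 0.04 in this order of comparisons, beside −0.54, 0.02, −0.16 and −0.19 for all genes. The 3 comparisons with CTRL share its cells, and the last shares cells with the 2 before it.

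The values in IRF3/7 have to be read beside the shift of all genes. The median of all genes there was −0.54 and the library was the shallowest. With median-of-ratios scaling 11 members were higher and 3 lower, beside 25.6% and 27.9% of all genes, 9 of 36 changed sign and 10 of the 22 calls remained. The mix of cells also differed: a monocyte list summed to 14207 CPM in IRF3/7 and 977 CPM in CTRL, and a neutrophil list to 1315 and 219 CPM. Their part in the differences was not tested. Well below the all-gene median lay P4ha2 at −3.87 (0.728 against 10.6 CPM) and Pdk1 at −2.03 (19.9 against 81.7 CPM). Well above it lay Pfkfb3 at 1.56 (266 against 90.2 CPM) and Ndrg1 at 1.11 (143 against 66.3 CPM). Over macrophage classes alone, which in IRF3/7 are mostly the 385 cells of TAM_H2Ab1, 4 of 21 called members turned from higher to lower values, Ndrg1 to −0.37, Slc16a3 to −1.48, Ankrd37 to −1.50 and Ddit4 to −0.75, and 7 of 35 members changed sign. Of the monocyte and macrophage classes only Infl_Mono reached 50 cells in both, with 93 in CTRL and 4335 in IRF3/7, and within it 10 of 20 calls remained and Mxi1 had 0.32 in place of −0.88. Ldha was at −0.80 and Pgk1 at −0.68, near the shift of all genes, and Gbe1 was at −0.98 and Bnip3l at −0.77. Adm was at −1.63, from 6 UMIs against 57.

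In COX2i against CTRL the transporters and several enzymes of glycolysis were among the higher members, and the 3 lower members were HIF targets. Other HIF targets went the other way when compared class by class. There Ndrg1 had log2 ratios from 0.59 to 1.13, Ankrd37 from 0.71 to 1.74 and Egln3 from 0.61 to 1.53. Slc2a1 was at 148 CPM in CTRL and 272 CPM in COX2i, a log2 ratio of 0.88, Pfkp at 112 and 228 CPM, and Slc16a3 at 164 and 285 CPM. Pgk1, which makes the first ATP of the pathway, had 0.62, Tpi1 0.61 and Hk3 0.60. Lower were Vegfa, at 138 against 251 CPM, Ddit4, at 101 against 177 CPM, and Hilpda, at 95.6 against 144 CPM. No member changed sign under median-of-ratios scaling here, but at the class mix of CTRL, over 5 classes, 7 of the 11 calls remained, without Hk3, Vegfa, Hilpda and Ddit4, and over macrophage classes alone 9, without Hk3 and Hilpda. In bulk sums of this kind fewer TAM_Spp1 cells and less RNA in each of them cannot be told apart, and the comparison within the class follows. With 5-azacitidine added, Hk3 was at 416 CPM, against 123 CPM in CTRL and 186 CPM in COX2i, a log2 ratio of 1.76 against CTRL and the largest of a member in that comparison. The mix of classes moved with it: Monocyte_1 held 44 cells in CTRL, 394 in COX2i and 3640 in COX2i + 5-AZA, where its 566 CPM of Hk3 and the 565 CPM of TAM_H2Ab1 were the highest, with intervals that overlapped. Over macrophage classes alone Hk3 had 1.47 against CTRL, and 8 of the 13 calls remained, without Aldoa, Pfkfb3, Gys1, P4ha2 and Ankrd37. At the class mix of CTRL 11 remained. Ddit4 was at 259 CPM and Hilpda at 281 CPM, above both other libraries. Vegfa was at 193 CPM, between them. Ndrg1 and Pfkp were both at 1.32 against CTRL and Pfkfb3 at 0.94. Against COX2i, the higher members were Hilpda at 1.56, Ddit4 at 1.36, Hk3 at 1.16, Ndrg1 at 0.77 and Pfkfb3 at 0.76, and the lower ones Adm at −1.26 and P4ha2 at −1.19. Median-of-ratios scaling changes the sign of 5 members against CTRL and of 10 against COX2i, all with ratios between −0.18 and −0.02 here. Hif1a itself lay at 140, 135, 115 and 127 CPM in CTRL, IRF3/7, COX2i and COX2i + 5-AZA, a narrow range. Its sign is among those that change, in IRF3/7 and in COX2i + 5-AZA against CTRL.

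Among the pathway genes that are not members, 4 of 29 were higher and 15 lower in IRF3/7 against CTRL, 5 and 6 of 29 in COX2i against CTRL, and 9 and 8 of 28 in COX2i + 5-AZA against CTRL. For COX2i + 5-AZA against COX2i the counts were 3 and 5 of 27. The shares of all genes, higher and lower, were 13.0% and 48.1%, 6.51% and 9.57%, 8.48% and 19.7%, and 9.21% and 18.6% in this order, and the counts in IRF3/7 lie near them.

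Within TAM_Spp1 the mix of annotated classes does not enter, but marker sums of the class itself moved between libraries, as given below. The members again lay above all genes under both treatments. Of 35 members with enough UMIs, all but Adm, 7 were higher and 2 lower in COX2i against CTRL, beside 4.14% and 5.91% of all genes. In COX2i + 5-AZA against CTRL 16 were higher and none was lower, beside 5.86% and 11.3%. Between the treated libraries 3 were higher and none was lower, beside 6.04% and 9.49%. Medians were 0.39, 0.52 and 0.14, beside 0.01, −0.08 and −0.10 for all genes. TAM_Spp1 had 2347 cells in CTRL, 1412 in COX2i and 857 in COX2i + 5-AZA, and the authors drew the class over all libraries together.

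**Figure D3:**
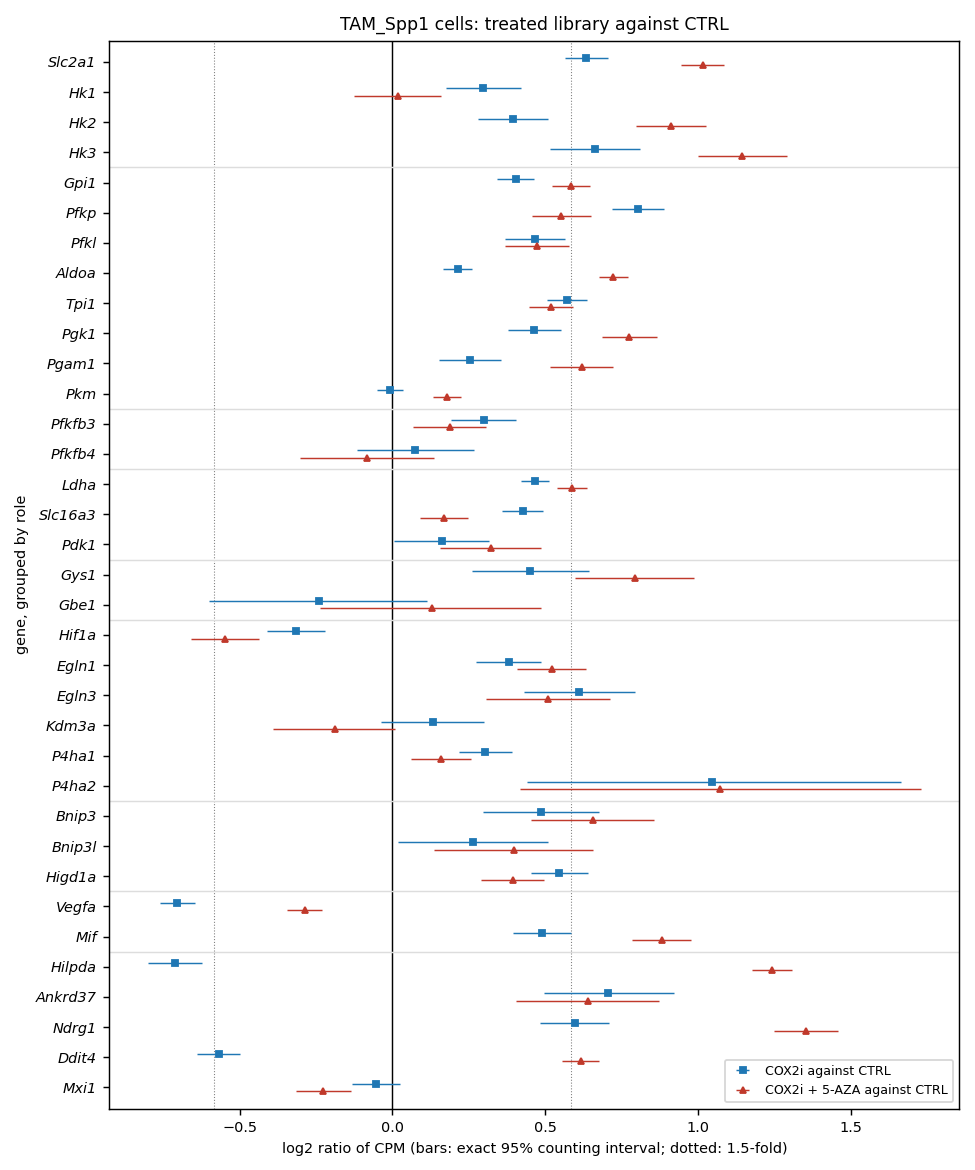
Log2 ratio of CPM within TAM_Spp1 for COX2i (squares) and COX2i + 5-AZA (triangles) against CTRL, for the 35 members with enough UMIs, grouped by role. Bars are exact 95% counting intervals and dotted lines mark 1.5-fold. Hilpda lies at −0.71 for COX2i and at 1.24 for COX2i + 5-AZA, on opposite sides of 0, as Ddit4 does.

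Several genes of glycolysis had their lowest level in CTRL and their highest in COX2i + 5-AZA. Slc2a1 was at 315 CPM in CTRL, 489 in COX2i and 636 in COX2i + 5-AZA. Hk2 was at 128, 168 and 241 CPM, Hk3 at 72.6, 115 and 160.5 CPM, Aldoa at 812, 942 and 1342 CPM, and Pgk1 at 217, 299 and 371 CPM. Mif followed them at 179, 251 and 330 CPM and Ldha at 779, 1077 and 1173 CPM. Pkm, at 1063, 1057 and 1203 CPM, and Slc16a3, with log2 ratios of 0.43 and 0.17 against CTRL, did not pass 1.5-fold. Pfkp was highest in COX2i, at 354 CPM, against 203 CPM in CTRL and 298 CPM in COX2i + 5-AZA. Marker lists moved within TAM_Spp1 as well. The monocyte list rose in the order of the libraries, at 2098, 2579 and 2937 CPM. A TAM_C1q list fell, at 17050, 12104 and 9455 CPM. Their part in the glycolysis genes was not tested.

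The HIF targets Hilpda, Ddit4 and Vegfa, among the strongest of TAM_Spp1, had another order. Hilpda was at 348 CPM in CTRL, 213 in COX2i and 824 in COX2i + 5-AZA. Its log2 ratio was −0.71 (95% interval −0.80 to −0.62) in COX2i against CTRL and 1.95 (1.87 to 2.04) in COX2i + 5-AZA against COX2i. Ddit4 was at 513, 346 and 786 CPM, and Vegfa at 826, 507 and 676.5 CPM. Vegfa was thus lower in COX2i by 1.5-fold or more, and in COX2i + 5-AZA at −0.29 against CTRL it was not. Ndrg1 had the order of the glycolytic genes, at 127, 192 and 326 CPM, and Hif1a had the reverse order, at 254, 204.5 and 174 CPM. Mxi1 had log2 ratios of −0.05 and −0.23 against CTRL. The neutrophil list of 6 markers summed to 390, 263 and 613 CPM in TAM_Spp1 of CTRL, COX2i and COX2i + 5-AZA, the same order as Hilpda and Ddit4, and the list of 9 TAM_Spp1 markers to 52983, 42322 and 30157 CPM. Their part in these differences was not tested.

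Of the remaining members, Egln3 was at 0.61 in COX2i and 0.51 in COX2i + 5-AZA against CTRL, and Ankrd37 at 0.71 and 0.64. Bnip3 had 0.49 and 0.66, Gys1 0.45 and 0.79, Gpi1 0.40 and 0.59, and Pgam1 0.25 and 0.62. P4ha2, with few UMIs, had 1.05 and 1.07. Outside the members, 4 of 26 pathway genes were higher and 3 lower in COX2i against CTRL, 9 and 4 of 26 in COX2i + 5-AZA against CTRL, and 4 and 3 of 24 in COX2i + 5-AZA against COX2i. All genes had 4.14% and 5.91%, 5.86% and 11.3%, and 6.04% and 9.49% in the same order. The largest were Ak4 at 1.60 and 2.06 and Aldoc at 0.84 and 1.54 against CTRL.

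The same sets of libraries could be compared in other classes with at least 50 cells in both. COX2i against CTRL gave a members' median above that of all genes in 7 of 7 classes, from 0.27 in cDC2 to 0.60 in Myofibrobl, where all genes lay between −0.00 and 0.08. COX2i + 5-AZA against CTRL gave it in 7 of 8 classes, from 0.04 in Macro to 0.52 in TAM_Spp1. COX2i + 5-AZA against COX2i gave it in 4 of 9, from −0.22 in cDC1 to 0.14 in cDC2, and IRF3/7 against CTRL in 1 of 3, which was Myofibrobl. The shift under COX2i was therefore found in macrophages, monocytes, dendritic cells and non-immune cells of these 2 libraries, which are 1 pool of tumours each.

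**Figure D4:**
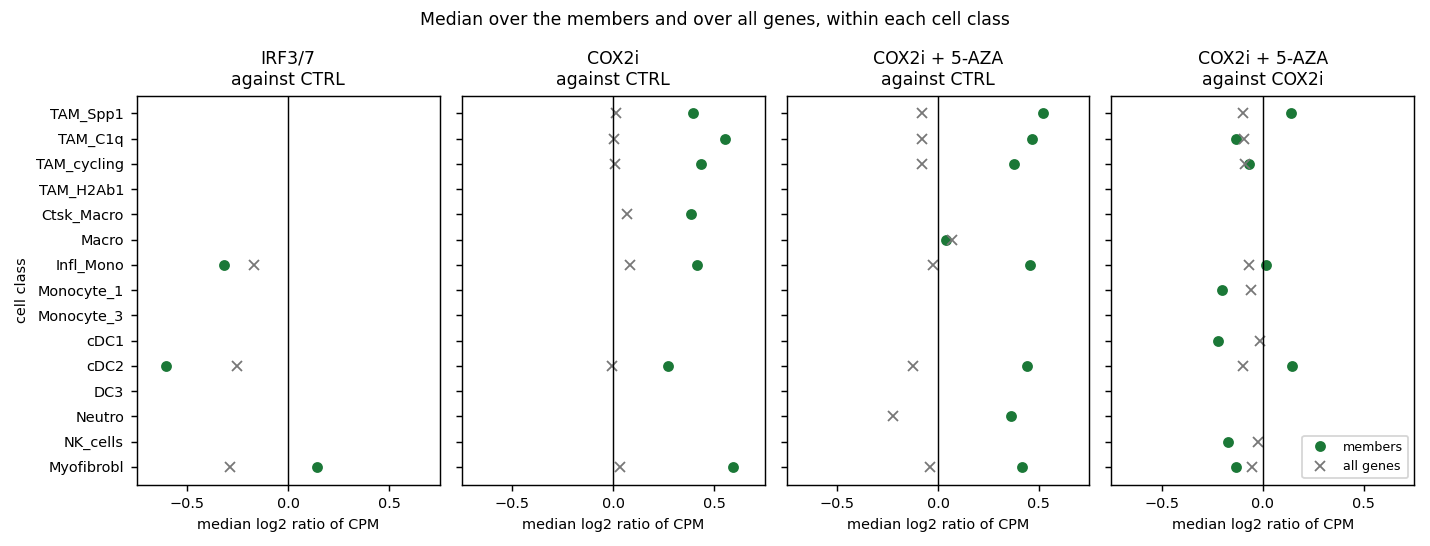
Median log2 ratio of CPM over the members (dots) and over all genes (crosses) within each class that has at least 50 cells in both libraries, in 1 panel per library comparison. In COX2i against CTRL all 7 dots lie to the right of their crosses.

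By gene, Slc2a1 was above 0 with its whole interval in 7 of 7 classes of COX2i against CTRL, from 0.14 in cDC2 to 1.34 in TAM_C1q, and Pfkp in 7 of 7, from 0.53 to 1.31. Hk3, Ldha, Tpi1, Pfkfb3, Slc16a3, Mif and Ndrg1 did the same. Ddit4 was above 0 in 1 class, Myofibrobl at 1.42, and below in 5, lowest in Ctsk_Macro at −1.01. Hk3 was above 0 in COX2i + 5-AZA against CTRL in 8 of 8 classes, from 0.78 in Neutro to 3.09 in cDC2, as were Aldoa, Pfkp, Pgk1 and Pkm. Hilpda reached 1.84 and Ddit4 1.58 in TAM_C1q there. Slc16a3 was below 0 in 7 of 9 classes of COX2i + 5-AZA against COX2i. How many of all genes meet these rules was not counted, so they describe single members and do not set the members apart.

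Shares of cells with a UMI were read after each cell was thinned to 2000 UMIs, which left out 97 of 2347 TAM_Spp1 cells in CTRL, 48 of 1412 in COX2i and 33 of 857 in COX2i + 5-AZA. Vegfa was found in 58.4% of TAM_Spp1 cells of CTRL (exact binomial 95% interval 56.3 to 60.4%), in 44.0% of COX2i (41.3 to 46.7%) and in 50.1% of COX2i + 5-AZA (46.7 to 53.6%). Without thinning these shares were 70.9%, 55.8% and 62.3%. In TAM_C1q they were 20.1%, 16.2% and 26.2% after thinning. NK cells had 11.98% in IRF3/7 and 19.2% in COX2i + 5-AZA. Their medians were 3438 and 3961 UMIs before thinning, against 4103.5 to 5576 in TAM_Spp1. The TAM_C1q shares lie nearer to those of NK cells than the TAM_Spp1 shares do. NK cells were not the lowest class for Vegfa, so they are no empty background. The lowest were TAM_H2Ab1 in IRF3/7, at 29.2 CPM, and Monocyte_3 in COX2i + 5-AZA, at 29.9 CPM. For Ddit4, NK cells were the highest class in IRF3/7, at 348 CPM. NK cells of CTRL and COX2i were too few to be read. Hilpda was found in 28.7%, 16.9% and 51.5% of TAM_Spp1 cells and Ddit4 in 39.4%, 28.6% and 51.5%. NK cells had 24.2% and 25.4% for Hilpda and 37.7% and 44.3% for Ddit4 in IRF3/7 and COX2i + 5-AZA, so Hilpda in COX2i and Ddit4 in CTRL and COX2i were found in TAM_Spp1 no more often than in NK cells of some library. A median TAM_Spp1 cell held UMIs of 10, 11 and 13 members, against 7, 9 and 9 for TAM_C1q. A median Monocyte_1 cell held 12 in COX2i and 11 in COX2i + 5-AZA.

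Within TAM_Spp1, cells with and without a Vegfa UMI were set side by side. Cells with a Vegfa UMI numbered 1314 in CTRL, 600 in COX2i and 413 in COX2i + 5-AZA, and cells without one 936, 764 and 411, all at 2000 UMIs. Of the 33, 32 and 32 other members found in at least 50 of the cells, 18, 15 and 12 were found in a larger share of the cells with Vegfa, with intervals apart, and none in a smaller share. Over all genes found that often, a larger share was seen in 4.03%, 3.29% and 4.11%, and a smaller one in 4.46%, 2.92% and 3.55%. For the members found that often, the median difference was 5.00, 6.15 and 7.38 percentage points, against −0.51, −0.52 and −0.76 for all genes. In TAM_C1q the shares of cells with Vegfa lie nearer to those of NK cells. There 25, 17 and 24 of the 34, 34 and 30 members found that often had a larger share beside Vegfa. Of all genes 4.51%, 3.28% and 4.78% did. A smaller share there was seen for 1, 0 and 0 members, the 1 being Hk3, against 4.71%, 3.29% and 4.44% of all genes. Cells of 1 library are not replicates, so this describes these 3 pools.

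**Figure D5:**
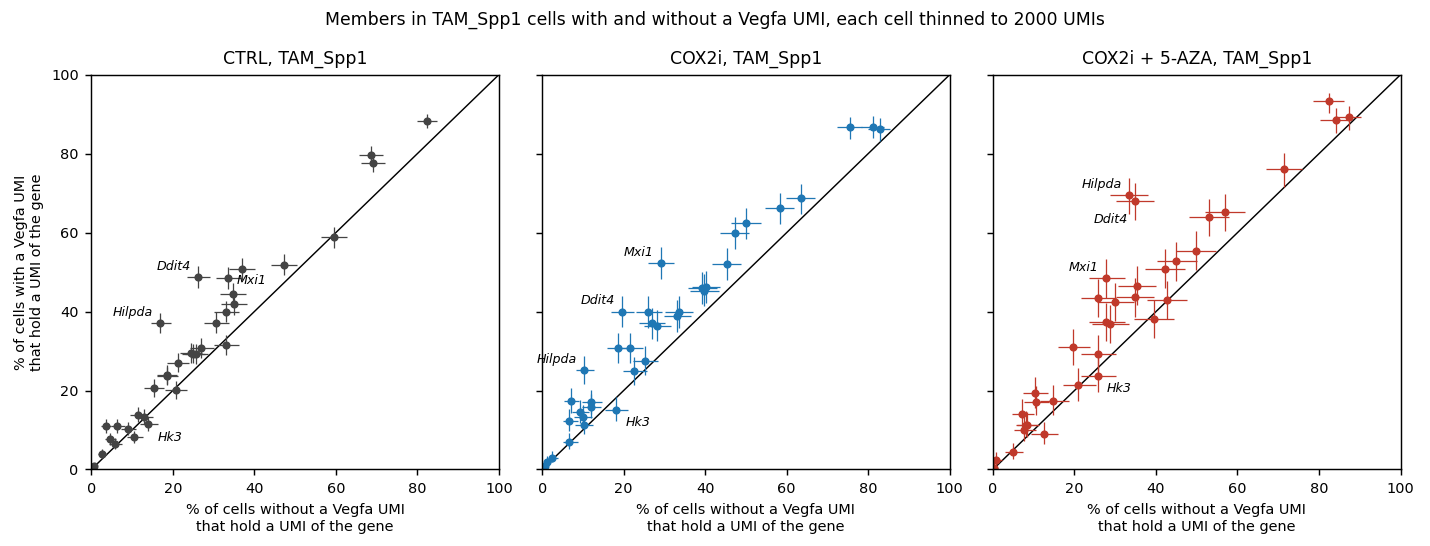
Percent of TAM_Spp1 cells with a UMI of each member among cells without a Vegfa UMI (x axis) and with one (y axis), after thinning to 2000 UMIs, in CTRL, COX2i and COX2i + 5-AZA, with exact 95% intervals as bars. Points above the diagonal are members found more often beside Vegfa, Hilpda, Ddit4 and Mxi1 among them, and Hk3 lies below it.

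Hilpda had the widest gap in COX2i + 5-AZA, found in 69.5% of cells with Vegfa and 33.3% of cells without. In CTRL it was found in 37.1% and 16.9%, and in COX2i in 25.2% and 10.3%. Ddit4 had 48.7% and 26.3%, 40% and 19.6%, and 68.0% and 34.8% in the same order. Mxi1, the MYC antagonist, had 48.5% and 33.5%, 52.3% and 29.1%, and 48.4% and 27.7%. The hydroxylase Egln3 had 10.96% and 3.53%, 17.3% and 7.07%, and 14.0% and 7.06%, and the enzyme Aldoa 79.8% and 68.7%, 86.7% and 75.5%, and 93.2% and 82.5%. Hk3 had 11.4% and 14.0%, 15.2% and 18.2%, and 23.7% and 25.8%, intervals that overlapped. The hexokinase that was lower in TAM_Spp1 as a class was therefore also not found more often in its Vegfa cells.

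The profile of Vegfa was last compared with other genes over 40 units, each a class in a library with at least 50 cells. Of 8087 genes that are not members and reached 50 CPM in some unit, the 5 most alike by Pearson's r of log2(CPM + 1) were Rgcc (0.81), Jmy (0.74), Tcf25 (0.72), Ero1l (0.72) and Sgk1 (0.69). Of the members, Egln3 (0.73), Bnip3 (0.72), Slc2a1 (0.67) and Pgam1 (0.66) were the most alike. The units share libraries and depth, so these values are descriptions.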

How the data were processed

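Live CD45+ cells of pooled mouse melanomas were profiled by probe-based Chromium Flex sequencing in 4 libraries. Per the labels and the study's methods, the authors aligned reads to mm10 with Cell Ranger 7.1.0, filtered cells and annotated 17 classes from clusters. The deposited matrix holds raw UMI counts, used as given, with total UMIs and detected genes per cell, which are counts too. Probes cover genes unequally, so levels were not compared between genes.

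UMIs were summed per class and library and divided by their total (CPM). Classes with fewer than 50 cells were left out. Log2 ratios have exact conditional 95% intervals, levels Poisson and shares Clopper-Pearson intervals, all for counting error only. A gene was compared with at least 50 UMIs in both arms together, called at 1.5-fold, and a count of 0 set to 3. With 1 library per group no test was made. The 9 monocyte and macrophage classes were Infl_Mono, Monocyte_1, Monocyte_3, TAM_C1q, TAM_Spp1, TAM_cycling, TAM_H2Ab1, Ctsk_Macro and Macro. Doublets were not removed. The barcodes hold 1201 cells with 1000 or fewer detected genes. Named genes are the members with the largest ratio of their role group (at least 200 UMIs) and the family pairs, and smaller ones where counts needed them. The members, lists and rules were chosen with earlier results of these data known. 1 gene of the TAM_Spp1 marker list is not reported here and was left out of its sums. Scripts were checked on simulated data. Alternatives are given in the closing section. Python 3.11.15, numpy 2.4.6, scipy 1.17.1, pandas 2.3.3 and matplotlib 3.10.9 were used, with sequences from RefSeq (GRCm38.p6).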

Additional observations from a re-analysis of the deposited data

Results flagged for a closer look

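The differences below went in opposite directions in different classes of the same libraries, by 1.5-fold or more in both, and the difference between the classes was not tested. Hilpda in COX2i against CTRL had a log2 ratio of 0.72 in Ctsk_Macro (95% interval 0.53 to 0.91) and −0.91 in Infl_Mono (−1.41 to −0.42). Vegfa in COX2i + 5-AZA against COX2i had 0.74 in TAM_C1q and −0.95 in Infl_Mono. Vegfa in COX2i + 5-AZA against CTRL had 0.62 in TAM_C1q and −1.66 in Macro. P4ha2 in COX2i + 5-AZA against CTRL had 1.07 in TAM_Spp1 and −0.84 in TAM_cycling. Pfkfb3 in COX2i + 5-AZA against CTRL had 1.12 in TAM_cycling and −0.75 in Macro. With 1 library per group, no group held enough samples to look for a library that stands apart.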

How the results depend on the processing

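Of the alternative values of the summary results, 99 stayed close, 22 moved and 3 reversed. The median over all members in IRF3/7 against CTRL was 0.10 with median-of-ratios scaling, −0.54 as a mean of per-cell CPM, −0.32 within Infl_Mono, the 1 class the libraries share for a common class mix, and −0.82 in macrophages only. In COX2i + 5-AZA against COX2i the median was 0.23 with median-of-ratios scaling, −0.019 at the class mix of CTRL and −0.054 in macrophages only. Against CTRL, COX2i + 5-AZA had 0.60 with median-of-ratios scaling, 0.49 in cells with more than 2000 genes, 0.38 as a mean of per-cell CPM and 0.38 in macrophages only, and in COX2i against CTRL 0.48 at the class mix of CTRL. For TAM_Spp1 against the others in CTRL, COX2i and COX2i + 5-AZA, median-of-ratios scaling gave 0.79, 0.68 and 0.76. Choosing TAM_Spp1 by its share of marker UMIs gave 0.42 in CTRL and 0.47 in COX2i + 5-AZA, TAM_C1q alone as comparator gave 0.34 in COX2i, and other macrophages only gave 0.75 in COX2i + 5-AZA. Vegfa shares were 71.8%, 52.6% and 61.9% at 4000 UMIs and 70.9%, 55.8% and 62.3% unthinned. Ndrg1 in IRF3/7 against CTRL had −0.37 in macrophages only, and P4ha2 in COX2i + 5-AZA against CTRL had 0.037 at the class mix of CTRL. Causes were not tested. At 2-fold the counts of members higher were 11, 6 and 8 for TAM_Spp1 against the others (19, 15 and 19 at 1.5-fold), beside 4.90%, 3.58% and 3.13% of all genes. They were 2, 3, 4 and 3 for the library comparisons (7, 8, 12 and 5), beside 8.67%, 1.63%, 5.13% and 5.54%, and 1 and 5 within TAM_Spp1 against CTRL (7 and 16), beside 1.09% and 2.46%. Lower ones at 2-fold were 1, 0 and 1, beside 11.99%, 11.1% and 10.4% of all genes, then 4, 0, 0 and 2, beside 31.7%, 3.84%, 10.3% and 9.11%, and within TAM_Spp1 against CTRL 0 and 0, beside 2.00% and 4.82%. With median-of-ratios scaling 23 were higher in COX2i for TAM_Spp1 against the others (15), beside 11.04% of all genes, and 19 in COX2i + 5-AZA against CTRL (12), beside 11.2%. Within Infl_Mono 4 were higher and 7 lower in IRF3/7 (7 and 15), beside 15.3% and 27.8% of all genes. At the class mix of CTRL 13 were higher in COX2i (8), beside 3.32%, and in macrophages only 1 was higher in IRF3/7 (7), beside 10.9%. Within TAM_Spp1 the medians stayed at 0.38 to 0.40, 0.52 to 0.60 and 0.13 to 0.24. Leaving out cells whose droplet barcode is in more than 1 library was chosen after seeing the data. No paired analysis was possible because each group is 1 library, and for the same reason no replicate could be left out. The number of UMIs limits genes such as Adm and P4ha2.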
